A study of Mus musculus with 4 samples.

Results

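Dgka and Dgkz encode diacylglycerol kinases alpha and zeta, and the peaks described here are those whose summit lay inside or within 100 kb of either gene, 8 of the 1575 peaks deposited for wild-type cells. They comprise 5 of 1106 anti-Eos peaks and 3 of 469 anti-Helios peaks. The genes were chosen by their summits in these same lists, so the presence, number and fold of the peaks are given as a description, with no test. Chromatin immunoprecipitation with sequencing (ChIP-seq) used antibodies to Eos (Ikzf4) or Helios (Ikzf2), zinc finger factors of the Ikaros family, on regulatory T (Treg) cells. The cells were isolated as CD4+CD25+ from spleens of wild-type mice, whose strain and age the sources do not state. The 2 libraries of Eos-flox x Foxp3-Cre mice, which delete floxed Eos where Foxp3 is active, were not analysed here. The specificity of either antibody was not examined. Each group was 1 library, so there was no replicate error. Coordinates are those of GRCm38 (mm10).

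Diacylglycerol kinases switch off a lipid signal of the T cell receptor. When the receptor is engaged, phospholipase C gamma cleaves a membrane phosphoinositide into inositol trisphosphate and diacylglycerol, and diacylglycerol recruits Ras guanyl releasing proteins and protein kinase C theta to the membrane. The kinases phosphorylate diacylglycerol to phosphatidic acid and so end that branch. DGK alpha and DGK zeta are the family members best known in T cells, where losing either strengthens receptor signalling. DGK alpha is calcium-regulated through its EF hands, whereas DGK zeta carries ankyrin repeats and a PDZ-binding tail.

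Each peak carries the authors' fold enrichment over a control library that the sources do not identify. Fragments at the summit, recovered from fold and p-value, had medians of 14 in the anti-Eos list and 18 in the anti-Helios list, so peaks rest on few fragments. Their 95% exact Poisson intervals below cover counting error only. Because peaks were called separately and the controls may differ, folds are ranked within a list. By nearest protein-coding gene, anti-Eos summits fell to 4 of 8 T cell marker genes found in the gene table and 5 of 7 Treg marker genes. The corresponding anti-Helios counts were 1 and 1. The same measure gave 4.10% (anti-Eos) and 1.94% (anti-Helios) of all protein-coding genes, and 0 of the B cell, myeloid, CD8 and NK, erythroid, plasma cell and platelet markers. Within 100 kb, anti-Eos summits lay near 8 of 8 T cell, 7 of 7 Treg, 3 of 6 B cell and 2 of 6 CD8 and NK markers and near 1 marker of each other set. Anti-Helios summits lay near 4 T cell, 2 Treg, 3 B cell, 1 erythroid and 1 plasma cell and platelet markers. Over all protein-coding genes, 16.9% had an anti-Eos and 9.31% an anti-Helios summit inside or within 100 kb. The Treg counts, except the anti-Helios count by nearest gene, include Ikzf4, whose summits are among the 8 peaks described here. These are counts of genes and not of separate places. Within 100 kb, Cd3d, Cd3e and Cd3g share 1 peak of each antibody, and Ctla4 and Icos share 1 anti-Eos peak.

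Sequence could be read where a peak lay within a RefSeq start window, the 250 bases before and 50 bases after an annotated transcript start. The anti-Helios peak at Dgkz was the 1 peak of the 8 that lay wholly in such a window, at the start at 91963563 on the minus strand of chromosome 2. The 250 bases before that start (RefSeq, GRCm38.p6, chr2:91963564-91963813, minus strand, 5′ to 3′) are shown because they hold the whole peak, chr2:91963583-91963743, in capitals.
Dgkz upstream: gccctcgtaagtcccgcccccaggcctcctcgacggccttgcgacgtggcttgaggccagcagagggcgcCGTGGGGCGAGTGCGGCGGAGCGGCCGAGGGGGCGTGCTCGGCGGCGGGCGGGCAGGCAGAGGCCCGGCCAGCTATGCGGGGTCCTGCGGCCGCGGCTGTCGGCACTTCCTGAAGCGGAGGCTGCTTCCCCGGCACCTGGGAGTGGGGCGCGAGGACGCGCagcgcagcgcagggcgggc

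The peaks at Dgka lay outside every start window, so their own bases are not shown. The 250 bases before the outermost Dgka start, at 128745084 (chr10:128745085-128745334, minus strand), and before the start at 128744076 (chr10:128744077-128744326, minus strand) are shown for contrast. Of the 4 Dgka starts, these are the nearest to the peaks. Capitals mark matches to GGGAA, the core letters of Ikaros family sites, on either strand.
Dgka outermost: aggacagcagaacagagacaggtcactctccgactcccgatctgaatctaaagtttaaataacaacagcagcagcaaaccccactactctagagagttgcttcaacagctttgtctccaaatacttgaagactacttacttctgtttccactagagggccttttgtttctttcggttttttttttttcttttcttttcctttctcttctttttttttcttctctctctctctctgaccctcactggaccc
Dgka next: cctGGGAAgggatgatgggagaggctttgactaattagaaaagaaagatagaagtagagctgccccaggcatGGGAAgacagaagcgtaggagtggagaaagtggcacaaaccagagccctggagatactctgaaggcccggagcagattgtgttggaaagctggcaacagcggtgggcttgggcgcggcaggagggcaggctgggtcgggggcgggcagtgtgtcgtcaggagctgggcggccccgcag

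Dgka (chromosome 10, 128720131 to 128745084, minus strand) had 1 place with a peak in both libraries, just upstream of the gene, and no summit inside it. The anti-Eos peak there spanned 128746294 to 128746504 with a fold of 13.4, a -log10 q of 21.3 and 24 fragments (interval 15.4 to 35.7) over a local background of 0.924 control fragments. The anti-Helios peak spanned 128746292 to 128746505 with a fold of 11.4, a -log10 q of 17.8 and 27 fragments (17.8 to 39.3) over 1.2 control fragments. Both were strong for their list, ranking 55 of 1106 and 45 of 469 by fold.

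The summits of that place, at 128746370 and 128746374, lay 1286 and 1290 bp upstream of the outermost of 4 RefSeq starts of Dgka. The other starts of the gene lay further from the anti-Eos summit, at 2294, 2492 and 8758 bp. The place falls in the 2794 bp between Dgka and Pym1, a gene of the exon junction complex cycle that is transcribed away from Dgka. Pym1 starts 1509 bp from the anti-Eos summit and 1505 bp from the anti-Helios summit, slightly further than Dgka on the other side. A long noncoding RNA gene, Gm31504, starts 137 bp inside Dgka on the opposite strand and ends 488 bp short of the anti-Eos summit. The place is therefore intergenic and upstream of Dgka, between a pair of divergent protein-coding genes. Few summits of either list lay at a like distance upstream of a start. Summits 1 to 2 kb upstream of the nearest start made up 1.72% of the anti-Eos list and 1.49% of the anti-Helios list. Starts were those of the RefSeq windows, which do not cover every gene. These shares take no account of intergenic position or divergent neighbours.

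The paired peaks at Dgka matched closely in position. Their left edges differed by 2 bp, their right edges by 1 bp and their summits by 4 bp, and the whole anti-Eos peak lay within the anti-Helios peak. Over the 310 overlapping pairs of the series the median summit distance was 30.5 bp and the median of the larger edge difference was 65 bp. Summits as close as those at Dgka occurred in 32 pairs (10.3%), and edges as close in 1 pair, Dgka itself. This measure was picked after its values were seen. In fold, 15 of the 310 pairs (4.84%, Dgka included) were at least as high as Dgka with both antibodies.

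**Figure D1:**
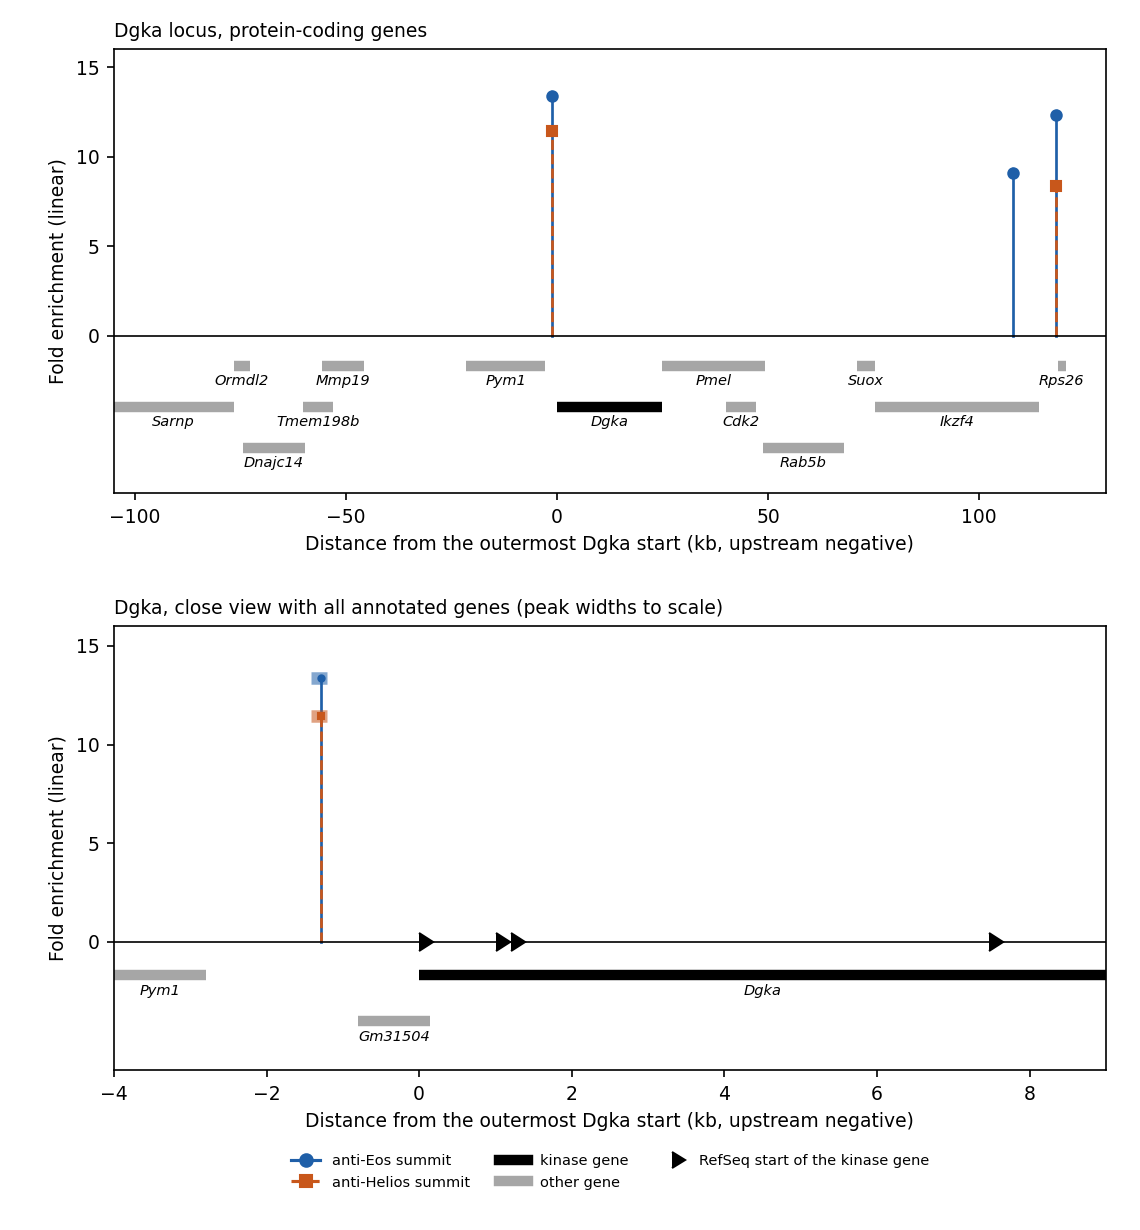
Fold enrichment (linear axis) of the peaks near Dgka against distance from its outermost start in kb, with upstream negative, for the whole locus (top) and close to the start (bottom). Stems mark summits (circles and solid lines anti-Eos, squares and dashed lines anti-Helios), pale bars in the close view the peak widths, thick bars genes and triangles RefSeq starts of Dgka. The shared place 1.29 kb upstream is the only one near the gene, and the other 3 peaks lie at Ikzf4 and Rps26.

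The other 3 peaks within 100 kb of Dgka belonged, by nearest gene, to other genes on its downstream side. Next to Rps26, a small ribosomal subunit gene, the anti-Eos peak (128626691 to 128626923) had a fold of 12.3 with 23 fragments (14.6 to 34.5). Its anti-Helios partner (128626752 to 128626876) had a fold of 8.33 with 16 fragments (9.15 to 26.0). These summits lay 323 and 314 bp upstream of the Rps26 start and 93.3 kb from Dgka. The narrower anti-Helios peak fell wholly within the anti-Eos peak and covered 53.6% of it.

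The remaining anti-Eos peak (128637012 to 128637261) lay inside Ikzf4, the gene of Eos itself and the gene floxed in the knockout mice, 82.9 kb from Dgka. It had a fold of 9.09 with 17 fragments (9.90 to 27.2). No anti-Helios summit lay nearer to it than 10362 bp. The rule's limit cut through no cluster: beyond 100 kb, the next anti-Eos summit lay 221.3 kb from Dgka (fold 5.20, at Myl6b) and the next anti-Helios summit 195.2 kb away (8.06, at Esyt1).

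Dgka sits among many genes, which bears on how its counts are read. It had 12 other protein-coding genes within 100 kb, against a median of 4 over the 21887 protein-coding genes of the table. Of all protein-coding genes, 16.9% had an anti-Eos summit inside or within 100 kb, 9.31% an anti-Helios summit and 7.49% both. Among the 431 genes with as many neighbours as Dgka these shares were 26.5% for anti-Eos and 15.3% for anti-Helios. Counts as high as those of Dgka, 3 anti-Eos and 2 anti-Helios summits, were held by 1.56% and 1.45% of genes. Since Dgka was chosen for its summits, nothing is read from these shares beyond their size.

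Dgkz (chromosome 2, 91932822 to 91976443, minus strand) differed in layout. All 3 of its peaks lay inside the annotated gene, none overlapped another, and no further summit of either list lay within 100 kb. The anti-Helios peak (91963583 to 91963743) had a fold of 8.19, a -log10 q of 9.61 and 19 fragments (11.4 to 29.7) over 1.2 control fragments. It ranked 169 of 469 by fold, in the upper part of its list.

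That peak sat at a transcript start of Dgkz. Its summit, at 91963627, lay 64 bp upstream of the start at 91963563, and its edges 20 and 180 bp upstream. The annotated gene reaches 12880 bp further upstream than this start, so the same summit is inside the gene's span. Of 17492 protein-coding genes with a start window, 0.869% had an anti-Helios summit in one. The share for anti-Eos was 1.45%, and neither Dgkz nor Dgka was among those genes.

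Both anti-Eos peaks of Dgkz lay downstream of that start and ranked low in their list by fold. The nearer (91961949 to 91962258) had a fold of 6.45, a -log10 q of 5.31 and 11 fragments (5.49 to 19.7) over 0.912 control fragments, with its summit 1338 bp downstream of the start. The further (91957137 to 91957269), 6312 bp downstream, had a fold of 4.44, a -log10 q of 3.78 and 16 fragments (9.15 to 26.0). Its local background of 3 control fragments was the highest of the 8 peaks, and 5.52% of anti-Eos peaks had at least as much. By fold the peaks ranked 764 and 1073 of 1106. By fragments the further peak ranked 343, with 30.9% of the list above it. A second RefSeq start of Dgkz, at 91950348, lay 6903 bp or more downstream of every summit in the gene.

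**Figure D2:**
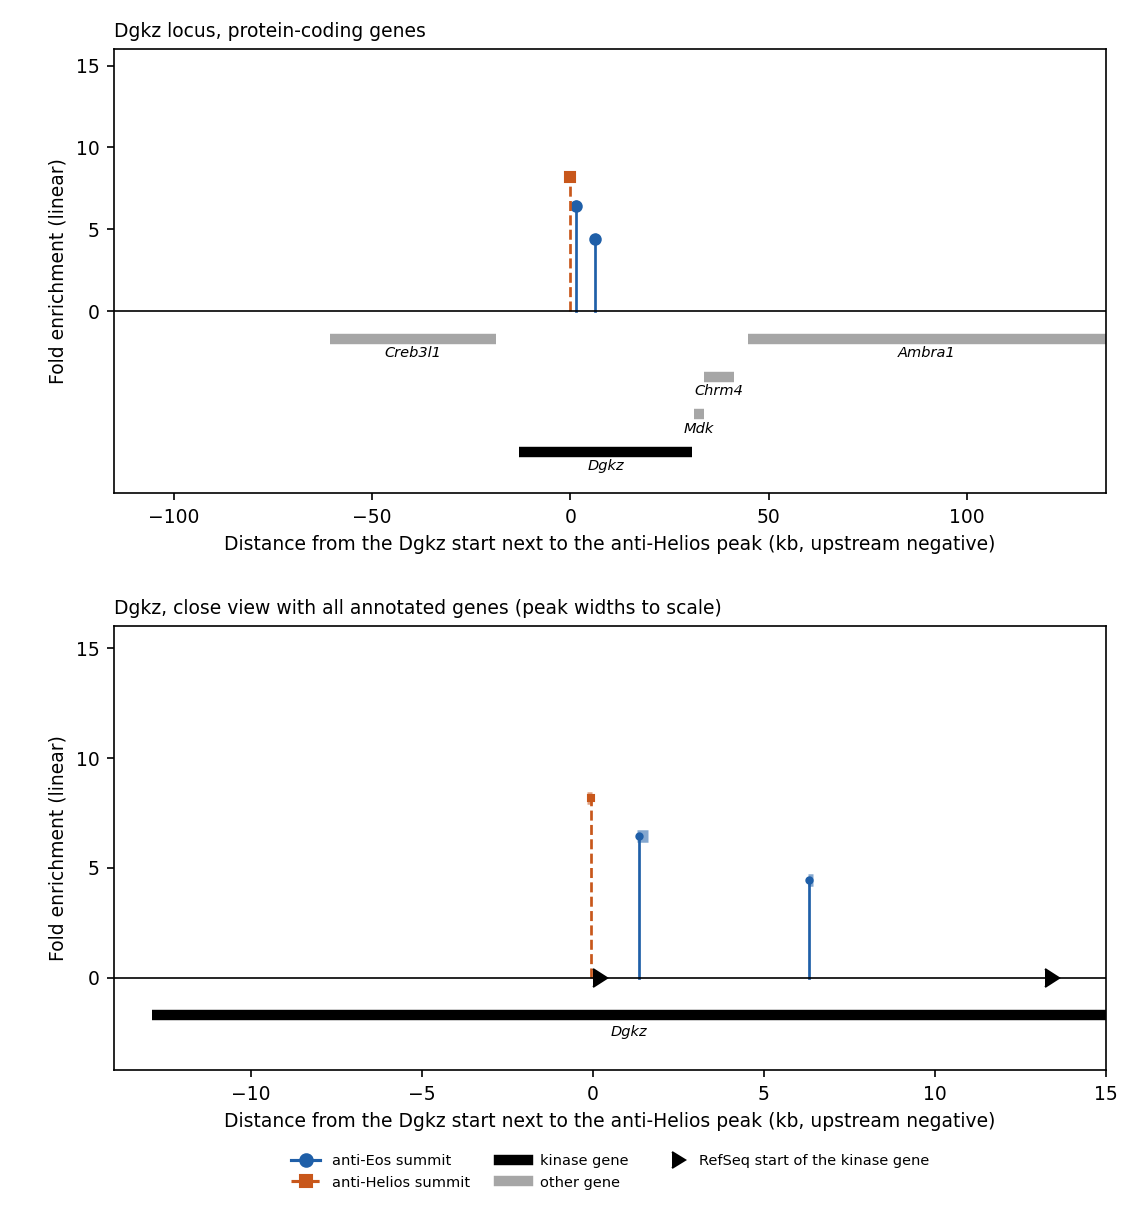
Fold enrichment (linear axis) of the peaks in Dgkz against distance in kb from the start next to the anti-Helios peak, with upstream negative, for the whole locus (top) and the gene's first part (bottom). Symbols are circles and solid stems for anti-Eos, squares and dashed stems for anti-Helios, pale bars for peak widths, thick bars for genes and triangles for RefSeq starts of Dgkz. The anti-Helios summit stands at the start and the 2 anti-Eos summits 1.34 and 6.31 kb downstream, with no overlap.

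The anti-Helios summit and the nearer anti-Eos summit of Dgkz were 1402 bp apart. Of the 160 anti-Helios peaks with no overlapping anti-Eos peak, 12 (7.50%) had an anti-Eos summit as close as this, and the median distance was 183 kb. In the list as a whole, 65.9% of anti-Helios peaks overlapped an anti-Eos peak and 27.9% of anti-Eos peaks overlapped an anti-Helios peak. Of the members, 2 of 3 anti-Helios and 2 of 5 anti-Eos peaks did so, all of them at Dgka and Rps26. An anti-Eos peak below the calling threshold at the Dgkz start would not be listed. The lists end at a -log10 q of 2.08 (anti-Eos) and 2.24 (anti-Helios), so presence and absence at Dgkz describe these lists and not a tested difference between the factors.

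Dgkz lies in a neighbourhood of ordinary gene density, with 4 other protein-coding genes within 100 kb (Ambra1, Chrm4, Mdk and Creb3l1). Of the 2508 genes with that number of neighbours, 15.4% had an anti-Eos summit inside or within 100 kb and 7.10% an anti-Helios summit. Over all genes, 2.57% had an anti-Eos summit inside the gene and 1.33% an anti-Helios summit, and 0.270% had 2 or more anti-Eos summits inside, as Dgkz did. These shares make no allowance for gene length, and Dgkz spans 43622 bp. Dgkz too was chosen for its summits, so nothing is read from the shares beyond their size. Beyond the limit, the next anti-Eos summit was 282.6 kb away (fold 7.62, at Arhgap1) and the next anti-Helios summit 1216 kb away (7.79, at Trp53i11).

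**Figure D3:**
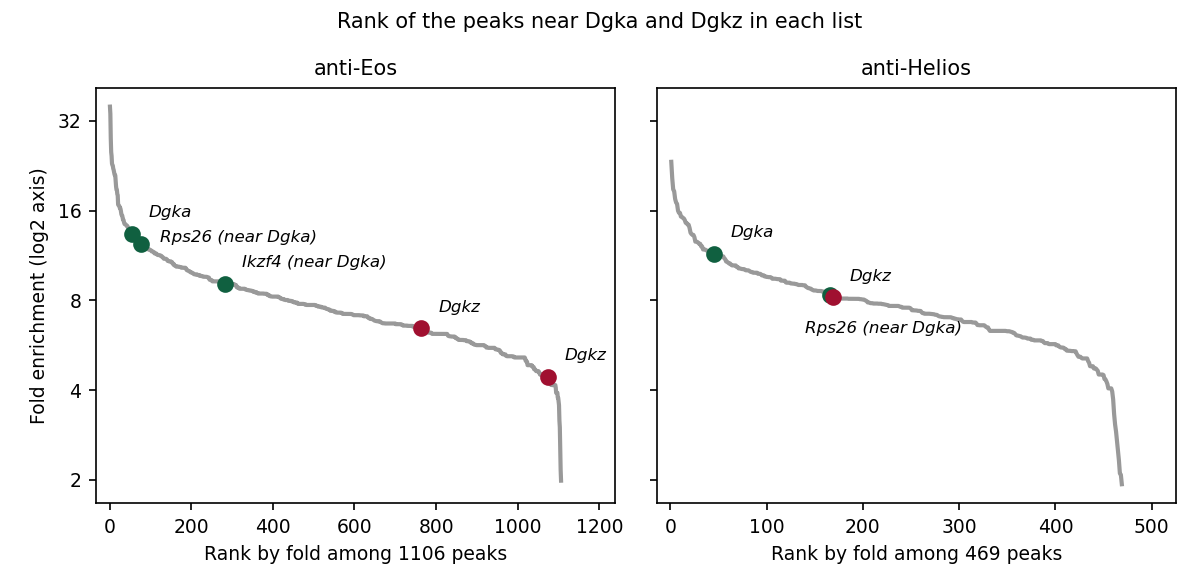
Fold enrichment (log2 axis) of every peak against its rank by fold, anti-Eos (1106 peaks) left and anti-Helios (469 peaks) right, with the members as points (green near Dgka, red in Dgkz) named by nearest gene. The Dgka place ranks 55 and 45, whereas the anti-Eos peaks of Dgkz rank 764 and 1073.

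Set side by side within each list, the place at Dgka ranked above the peaks of Dgkz. The anti-Eos peak upstream of Dgka was exceeded in fold by 4.88% of anti-Eos peaks, and those in Dgkz by 69.0% and 96.9%. In the anti-Helios list the shares were 9.38% for Dgka and 35.8% for Dgkz. The fragment intervals overlapped in each list: 24 (15.4 to 35.7) at Dgka against 11 (5.49 to 19.7) and 16 (9.15 to 26.0) at Dgkz with anti-Eos, and 27 (17.8 to 39.3) against 19 (11.4 to 29.7) with anti-Helios. Each count carries a wide counting error. Overlap of separate intervals does not settle whether counts differ, and the order in fragments was not tested. The lower fold of the further Dgkz peak goes with its higher local background, and the part this played was not tested.

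The shared places most like the Dgka place in fold with both antibodies were taken by the summed difference in log2 fold over the 310 pairs. They were those nearest to Atg3 (anti-Eos fold 13.0, anti-Helios fold 11.6), Arl4c (12.8 and 11.2), Bbip1 (14.5 and 11.2), Trappc9 (14.3 and 12.1) and Art2b (12.1 and 11.8). The summed differences ran from 0.07 to 0.19 on the log2 scale. The ratio of the anti-Eos to the anti-Helios fold at Dgka lay between the quartiles over pairs (0.817 and 1.48, median 1.06). The measure could not be made for Dgkz, which has no shared peak.

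The Dgkz start window was rich in G and C. Of its 300 bases 77.7% were G or C, with 43 CpG sites, against medians of 56.3% and 13 over the 21263 windows of protein-coding genes, and 2.54% of windows were richer. The 162 windows that held an anti-Helios summit had a median of 63.7% (quartiles 59.3 to 67.3%), and 2 of the 162 were richer than that of Dgkz. The peak itself, 161 bp, was 78.9% G or C with 23 CpG sites. The starts of Dgka spanned a wide range. The outermost window, nearest to the shared place, had 41.3% and 4 CpG sites, and the others, inward along the gene, 62.3%, 70.7% and 60.7%. The second Dgkz window had 61.7%.

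**Figure D4:**
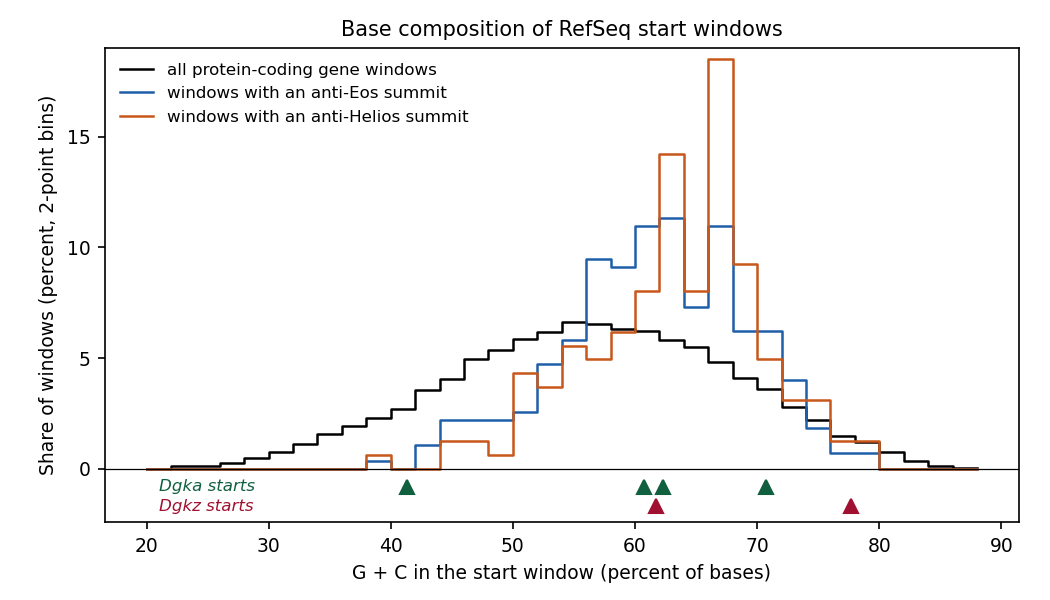
Share of RefSeq start windows (percent, in 2-point bins) by their G and C content (percent of 300 bases) for all 21263 windows of protein-coding genes (black), those with an anti-Eos summit (blue) and those with an anti-Helios summit (orange). Triangles mark the 4 Dgka windows (41.3 to 70.7%) and the 2 Dgkz windows; the Dgkz window with the anti-Helios peak, at 77.7%, is at the far right of the orange curve.

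Motifs were searched on both strands as exact letters. From 100 bases before to 100 bases after the Dgkz anti-Helios summit, GGGAA matched 1 time, on the strand opposite to the gene, and 48.3% of all start windows held a match in the same positions (68.5% of the windows with an anti-Helios summit). The longer Ikaros form TGGGAA had 0 matches (16.3% of windows). The 61 bases around the summit (chr2:91963597-91963657, minus strand) show the match, in capitals as read on the gene's strand, 9 bases from the summit.
Dgkz summit: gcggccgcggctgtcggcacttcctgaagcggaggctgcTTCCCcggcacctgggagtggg

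GGAA, the core of ETS factor sites, which every GGGAA contains, matched 2 times in that stretch: within the GGGAA match and 10 bases before the summit (88.4% of windows held a match). The GC box GGGCGG, read by SP and KLF factors, matched 4 times (42.3% of windows), of which 1 match lay within the peak and 0 within 50 bases of the summit. There were 0 matches to CCGGAAGT (ETS, 4.55% of windows), TGTGGT (RUNX, 9.92%), TGACTCA (AP-1, 3.28%), TGACGTCA (CRE, 2.04%), CAGCTG (an E-box, 11.2%), TGTTTAC (FOX, 1.93%) or GCGGGGGCG (EGR, 3.34%). Short cores such as GGGAA and GGAA occur in a large part of all start windows, so a match here is a description of the letters. Among the Dgka windows, the start at 128744076 held 2 matches to TGGGAA and the other 3 starts held 0 (24.5% of all 300-base windows held one). GGGAA gave the same counts at these 4 starts (63.0% of windows).

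Of the 10 genes of the kinase family, 4 (40%) had an anti-Eos summit inside or within 100 kb, beside 16.9% of all protein-coding genes. An anti-Helios summit was in range of 2 (20%), Dgka and Dgkz themselves, beside 9.31% of all genes. Dgka and Dgkz, chosen by their summits, are also 2 of the 4 genes with an anti-Eos summit. The family shares are thus set in part by that choice, and no excess over all genes is read from them. Dgkg, a calcium-regulated relative of Dgka, had an anti-Eos peak inside the gene, 29 bp from an annotated end (7.97, 22 fragments, chromosome 16, 22466512 to 22466658). The anti-Eos summit near Dgkd lay 97.3 kb away, at Atg16l1 (7.38). Dgkb, Dgke, Dgkh, Dgki, Dgkk and Dgkq had 0 summits.

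Upstream of the kinases are the genes of the receptor side that lead to diacylglycerol. Of 12 such genes, 5 (41.7%) had an anti-Eos summit and 6 (50%) an anti-Helios summit inside or within 100 kb, beside the 16.9% and 9.31% of all genes. Plcg1, the phospholipase that makes diacylglycerol after receptor engagement, had an anti-Helios peak inside the gene (6.10, 11 fragments) and no anti-Eos summit in range. Lcp2, which encodes the adaptor SLP-76, also had an anti-Helios peak alone (8.11).

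Several of these genes carried shared places. Zap70, the kinase recruited to the receptor, had an anti-Eos fold of 13.3 and an anti-Helios fold of 8.60, with summits 50 and 54 bp downstream of its start. At Lat, the adaptor that holds phospholipase C gamma, the folds were 7.20 and 8.19. A shared place 1804 and 1776 bp upstream of a start of Lck, the kinase that begins receptor signalling, had folds of 13.1 and 7.20. Like that of Dgka, it lay between neighbouring genes, and its nearest gene by distance was Fam167b. Another anti-Helios peak, 11.5 kb from Lck and also nearest to Fam167b, had a higher fold (8.10) and no overlapping anti-Eos peak.

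Targets of diacylglycerol form the next step. Of 16 effector genes, 3 (18.8%) had an anti-Eos and 3 (18.8%) an anti-Helios summit in range. The anti-Eos share was near the 16.9% of all genes, and the share of all genes for anti-Helios was 9.31%. Prkcq, which encodes protein kinase C theta, had 3 anti-Eos peaks inside the gene (7.46, 6.93 and 9.08), of which the middle one was shared (4.51 with anti-Helios). Rasgrp2, a Ras family exchange factor gene, had a shared place close to a start (6.65 and 7.77) and a weaker anti-Eos peak (4.63). Prkce had an anti-Eos peak (7.72) and Prkch an anti-Helios peak (5.59). Rasgrp1, the exchange factor best known as a diacylglycerol target in T cells, had 0 summits in range.

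Of 12 genes of the Ras-ERK and NF-kappaB steps, 3 (25%) had anti-Eos and 2 (16.7%) anti-Helios summits in range, beside 16.9% and 9.31% of all genes. Those near Mapk3, which encodes ERK1, belonged by nearest gene to Slx1b and Coro1a. Malt1, a paracaspase gene of the NF-kappaB branch, had an anti-Eos peak inside the gene (6.84). Of 20 other enzymes of diacylglycerol and phosphatidic acid, 4 (20%) had anti-Eos and 3 (15%) anti-Helios summits in range (near Pld2, Pld4, Daglb and Cept1), and the anti-Eos share was again near that of all genes (16.9%; anti-Helios 9.31%). None of these summits had the enzyme as nearest gene. Among 5 transcription factor genes known to act on Dgka or Dgkz, 2 (40%) had anti-Eos and 1 (20%) anti-Helios summits in range, beside the same shares of all genes. Egr1 had an anti-Eos peak 4.73 kb away (7.48), and the summits near Egr3 lay 71.2 kb or more away. Egr2, Foxo1 and Foxo3 had 0.

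Over all 75 pathway genes, 28.0% had an anti-Eos and 22.7% an anti-Helios summit inside or within 100 kb, beside the 16.9% and 9.31% of all protein-coding genes. By nearest gene the shares were 16% and 14.7%, beside 4.10% and 1.94%. The lists were assembled with the kinases and other receptor genes already known to carry peaks. Without Dgka and Dgkz, 26.0% and 20.5% of 73 genes had a summit in range.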

How the data were processed

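ChIP-seq peak lists of 2 wild-type libraries were used, each made with 6 µg of antibody. Per the submitters' processing notes, the tools included BWA 0.7.1, cutadapt 4.4, deepTools 3.5.1, SAMtools 1.17 and Picard, and the build was mm10 (GRCm38.p6). Peak caller and control: not given in the sources used here. The deposited lists hold, per peak, the fold enrichment (a ratio), the -log10 p-value, the -log10 q-value, a score equal to 10 times the -log10 q-value with its decimals dropped, and the summit offset, all by the authors. Whole fragments and local background were solved from the deposited fold and p-value with a MACS-type formula, an inference from the values. It gave the p-value of 100% of peaks within a relative tolerance of 0.0001, with the fold matched by construction. The solving was tested on data simulated with the same formula, which cannot show that the authors used that formula. Fragments were scaled by 1 (anti-Eos) and 0.895 (anti-Helios). Genes, starts and sequences came from RefSeq tables of GRCm38.p6 (21887 protein-coding genes; 21263 start windows), with no genome sequence. Distances run from the summit to the gene. Overlap meant at least 1 bp. No exon or intron classes were assigned. Python 3.11.15, NumPy 2.4.6, SciPy 1.17.1 and pandas 2.3.3 were used.

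The named genes were Dgka, Dgkz, the nearest genes and neighbours of their peaks, every pathway gene with summits of both antibodies and the 10 others with the highest fold; some of these genes are not reported here. Alternatives tried were other distance limits, a -log10 q of at least 5, a shorter anti-Eos list, exclusion of peaks with over 3 control fragments of background, stricter overlap, other rankings and other motif windows. Members and lists were chosen with earlier results of these data known.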

Additional observations from a re-analysis of the deposited data

How the results depend on the processing

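Of 62 alternative values, 43 stayed within 1.5 times the reported count or within the interval of the reported share, and 19 did not. Within 10 kb or 50 kb of Dgka, 1 anti-Eos and 1 anti-Helios summit were left, the shared place upstream of the gene, and within 500 kb there were 5 anti-Eos summits. At Dgkz, 1 anti-Eos summit was left with a -log10 q of at least 5, and 0 when the anti-Eos list was cut to the 469 peaks with the highest -log10 q. Overlap calls were the same with at least 50% of each peak in common, with summits within 100 or 1000 bp, and with a -log10 q of at least 5. Ranked by fragments, the shares of the list above the peak became 7.96% and 14.9% at Dgka, 9.22% and 58.6% at Rps26 (anti-Eos and anti-Helios) and 30.9% for the further anti-Eos peak of Dgkz. Ranked by -log10 q, they became 45.2% for the anti-Helios peak at Rps26 and 88.7% for the further Dgkz peak. Of the 75 pathway genes, 12 had an anti-Eos and 11 an anti-Helios summit within 10 kb. The shares of all protein-coding genes at that limit were 5.09% and 2.69%. The counts by nearest gene were 12 and 11, beside 4.10% and 1.94% of all genes. With the shorter anti-Eos list the anti-Eos count within 100 kb was 11, beside 9.03% of all genes. The pathway lists were assembled with some peaks already known, so no excess over all genes is read from these counts. No paired analysis was possible because each group holds 1 library. Few fragments per peak, at most 27 among the 8 peaks, limit every fold given.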
